A study of Mus musculus with 14 samples.

Results

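Broad H3K27ac sites were selected on width: they were the sites of the deposited list on chromosomes 1 to 19 and X that spanned more than 4 kb. They numbered 869 of the 122171 sites on these chromosomes (0.711%) and of the 122228 sites in the whole list, and they held 6.51% of all bases in sites. No site on another sequence was that wide. Width was therefore the criterion and is given below as a description, without a test. Acetylation of lysine 27 on histone H3 is placed by the acetyltransferases p300 and CBP at active promoters and enhancers. Most acetylated regions span a few nucleosomes around a nucleosome-free centre. Long, nearly unbroken stretches are known from strongly transcribed genes and from clusters of enhancers at genes that define a cell type.

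The sites came from chromatin immunoprecipitation and sequencing (ChIP-seq) in immortalized mouse embryo fibroblasts (iMEF), a connective tissue cell line. In the cells of all groups the conditional endogenous Ash2l gene had been deleted through Cre-ER and 4-hydroxytamoxifen, and a lentiviral human ASH2L with an FKBP degradation tag at its N-terminus took its place. ASH2L is a core subunit of KMT2 methyltransferases, which act on lysine 4 of the H3 tail, and the cells were 1 clone, named NG3. The PROTAC dTAG brings the tagged protein to an E3 ubiquitin ligase for degradation. The 14 libraries comprised 2 each of H3K27ac in untreated cells and after 30 min, 2 h, 4 h, 8 h and 16 h of dTAG, and 1 input each from untreated cells and after 16 h. The list joined the peaks of the samples and gave positions only. The libraries that contributed to a site, the depth behind it and any difference between time points are thus not given here, and there is no value by sample to test. Shares are given with 95% Wilson intervals, which cover counting error only. Neighbouring sites are not independent.

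Sequences upstream of 3 promoters in wide sites are shown as examples and do not span the range of base composition. The 150 bases before the transcription start site (TSS) are shown for 3 genes, read from GRCm38.p6 (mm10) with the TSS of GENCODE M21, and CpG dinucleotides are in capitals. The TSS of Col1a1 (chr11:94936074-94936223, plus strand) lay outside a CpG island (CGI), and those of Hspg2 (chr4:137468619-137468768, plus strand) and Glis2 (chr16:4594563-4594712, plus strand) inside one. None of these stretches overlapped an annotated exon.
Col1a1: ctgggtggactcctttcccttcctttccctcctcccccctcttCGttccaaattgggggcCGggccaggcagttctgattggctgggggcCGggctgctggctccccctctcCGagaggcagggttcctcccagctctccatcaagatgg
Hspg2: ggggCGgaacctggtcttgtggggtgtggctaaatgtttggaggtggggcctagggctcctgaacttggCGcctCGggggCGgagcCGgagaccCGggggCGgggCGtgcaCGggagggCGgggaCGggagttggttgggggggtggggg
Glis2: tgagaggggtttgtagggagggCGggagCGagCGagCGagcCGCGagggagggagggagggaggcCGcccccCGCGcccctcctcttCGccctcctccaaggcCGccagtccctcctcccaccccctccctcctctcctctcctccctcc

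The stretch of Col1a1 held 4 CpG dinucleotides, compared to 11 in both Hspg2 and Glis2. The G and C content was 64.7% in Col1a1, 72.7% in Hspg2 and 74.0% in Glis2. All 3 were above 59.2%, the median in the 250 bp before the TSS of protein-coding genes with a broad site. In those longer stretches it ranged from 32.0% (Gm37419) to 89.2% (Pmepa1). These 3 promoters were picked after their letters were seen.

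Micro RNAs (miRNAs) were also located inside broad sites. Hairpins of 18 miRNAs in the RefSeq table of GRCm38.p6, of 1005 hairpins in all, lay fully inside one, and 18 of the 22 GENCODE miRNA genes that started inside one were matched by symbol. These 22 were 1.0% of 2196 miRNA genes, beside 1.09% of genes of all kinds. The 8 mature sequences printed here were picked, after all were seen, as examples with a shared seed or from well-studied families, and the seed (bases 2 to 8) is in capitals.
miR-199a-3p: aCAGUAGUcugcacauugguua
miR-199b-3p: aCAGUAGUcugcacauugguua
miR-199a-5p: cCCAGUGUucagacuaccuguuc
miR-125b-5p: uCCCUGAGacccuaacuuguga
miR-125a-5p: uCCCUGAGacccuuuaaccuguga
let-7e-5p: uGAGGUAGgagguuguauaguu
miR-34a-5p: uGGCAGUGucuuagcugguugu
miR-138-5p: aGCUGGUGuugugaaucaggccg

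miR-199a-3p and miR-199b-3p share the seed CAGUAGU, and miR-125b-5p and miR-125a-5p share CCCUGAG. The remaining 4 had seeds of their own. Mir199a-1 lay in a site of 6351 bp and Mir199b in one of 4400 bp, each on the opposite strand of a dynamin gene (Dnm2 and Dnm1), and miRNAs of this family are known from mesenchymal tissues. Mir125b-1 was in a site of 4853 bp outside protein-coding genes, where the genes 3110039I08Rik and Gm28119 also started. Mirlet7e and Mir125a, which form a cluster with Mir99b, were inside a site of 5743 bp over Spaca6. Mir34a, a target of p53, was in a site of 4275 bp, and Mir138-2 in one of 5404 bp. The list does not show whether these sites belong to the miRNA, its host gene or an enhancer.

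The broad sites ranged from 4002 to 23883 bp with a median of 5138 bp (quartiles 4476 and 6490 bp), compared to a median of 401 bp over all sites. A width above 8 kb was recorded for 104 of them, above 10 kb for 44 and above 20 kb for 4. The 4 widest were at Unc5b, Pmepa1, Col1a1 and Plec. Just inside the threshold were sites at Arhgef25 (4002 bp), Inhba (4002 bp), which encodes a subunit of activin, and Vps53 (4009 bp). Just outside were a site within Pag1 (3999 bp), one at A630023A22Rik (3999 bp) and one at Tgfb2 (3996 bp), a TGF-beta ligand.

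The next question was whether these sites covered start sites of genes. At least 1 TSS of any annotated transcript was inside 465 of the 869 sites (53.5%, interval 50.2 to 56.8%), beside 11.5% of all sites on these chromosomes and 45.1% (interval 43.6 to 46.6%) of the 4415 sites of over 2 and up to 4 kb. A wide site covers more bases, so a higher share is built into the selection. A TSS of a protein-coding gene was inside 416 broad sites (47.9%, interval 44.6 to 51.2%), and 49 had only TSSs of other genes. Within the broad sites the share with any TSS was 50.0% from 4 to 6 kb (interval 46.0 to 54.0%), 57.5% from 6 to 8 kb (50.2 to 64.4%) and 66.3% above 8 kb (56.8 to 74.7%). Neighbouring width classes thus overlapped in their intervals, while the narrowest and the widest of the 3 did not. The count rests on all annotated transcripts, many of which start inside a gene. With only the annotated 5′ end of each gene, the share was 37.2% (interval 34.0 to 40.4%).

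**Figure D1:**
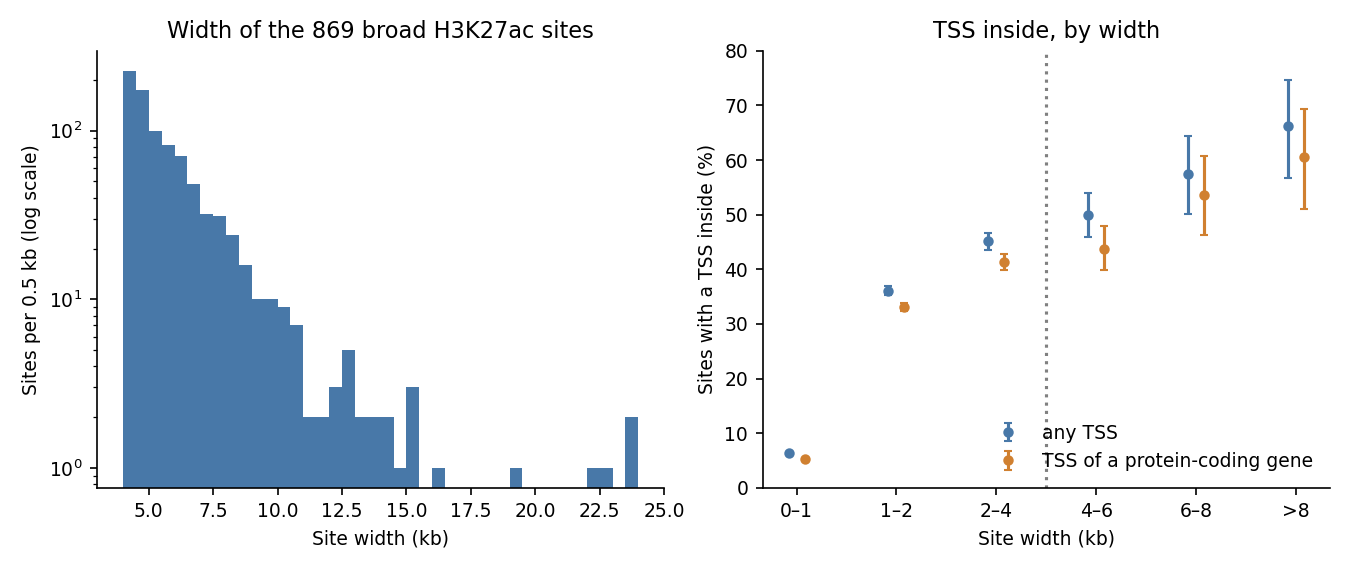
Left, number of broad sites per 0.5 kb of width on a log scale, which falls from the threshold of 4 kb to single sites above 20 kb. Right, percentage of sites with any TSS (blue) or a TSS of a protein-coding gene (orange) inside by site width in kb, with 95% Wilson intervals and a dotted line at 4 kb; the share with any TSS reaches 66.3% above 8 kb.

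Genes that started inside a broad site numbered 586 of 53843 (1.09%), of which 419 were protein-coding, 105 long non-coding and 22 miRNA genes. The long non-coding genes were 1.09% of 9603 and the miRNA genes 1.0% of 2196, so both were near the share over all genes. Among genes with any site, the share with a broad one was 8.91% for miRNA genes and 4.19% for all genes. The 419 protein-coding genes were 1.93% of 21755 (interval 1.75 to 2.12%), whereas 50.2% of protein-coding genes started inside a site of any width. Among those 10930 genes, 3.83% had a broad site. The 3 broad sites on the X chromosome contained no protein-coding TSS. Most of the 416 sites contained 1 protein-coding start, and 34 contained 2 or more. The widest sites with 3 were over Dok1, Loxl3 and M1ap (12957 bp), over Coro7, Dnaja3 and Vasn (10736 bp) and over S100a3, S100a4 and Gm42674 (7557 bp). Several broad sites that each contained a TSS of the gene were recorded for 34 protein-coding genes, with 3 each at Actn4 and Synpo, which encode actin-binding proteins. The median length of the 419 genes was 22042 bp, compared to 25551 bp for the 10511 genes that started only in narrower sites.

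Unc5b encodes a netrin receptor, and its site reached from 60797795 to 60821677 on chromosome 10. This site covered an internal TSS of the gene, with 1036 bp upstream of it and 22847 bp downstream. A second broad site of 9673 bp adjoined it and contained another TSS of Unc5b. At Pmepa1, an inhibitor of TGF-beta signalling (chromosome 2, 173252840 to 173276447), 23350 of 23608 bp were downstream. At Plec, which encodes the cytolinker plectin (chromosome 15, 76186980 to 76209136), 21674 of 22157 bp were downstream and 10 TSSs were inside.

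Col1a1, the collagen type I alpha 1 chain (chromosome 11, gene 94936224 to 94953042, plus strand), differed from these in that its site of 22711 bp extended to both sides. It reached 7183 bp upstream of the annotated 5′ end and 15528 bp downstream, and covered 92.3% of the gene. Amotl2, a regulator and target of YAP (chromosome 9), was covered over 86.9% of its length by a site of 15211 bp. At Hspg2, encoding perlecan, the site began 17 bp before the 5′ end and continued for 14209 bp. The site of the heparan sulfate proteoglycan Sdc4 was positioned likewise, with 12 bp upstream and 12714 bp downstream of its outermost TSS in the site. Glis2 (13734 bp), Lrrfip1 (12883 bp) and Arhgef2 (12700 bp) completed the 10 longest reaches downstream. Inf2, encoding a formin, followed with 11434 bp, and the annexin gene Anxa8 had 9044 bp. The Ras effector gene Rin1 was covered over its whole length by a site of 11270 bp.

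Other wide sites lay mainly upstream. The non-muscle myosin gene Myh9 had a site of 16311 bp with 11684 bp upstream of the TSS that it contained, an internal TSS, so that the bases upstream were still within the gene. Ltbp2, which encodes a microfibril-associated matrix protein, had 11358 bp upstream and 2751 bp downstream of its 5′ end. Bop1 had 11193 bp upstream, also of an internal TSS, and its whole site was within the gene. Loxl3 had 10173 bp upstream of its 5′ end. Each shared its site with other genes that started inside, Scx for Bop1 and Dok1 and M1ap for Loxl3. Odf3l1 had 8638 bp upstream and 486 bp downstream, and the same site reached 8285 bp downstream of the divergent gene Cspg4, which encodes the proteoglycan NG2. Of 28 protein-coding genes at the 25 widest sites with a TSS inside, 22 had more of the site downstream and 6 more of it upstream, while for 14 the annotated 5′ end was inside.

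**Figure D2:**
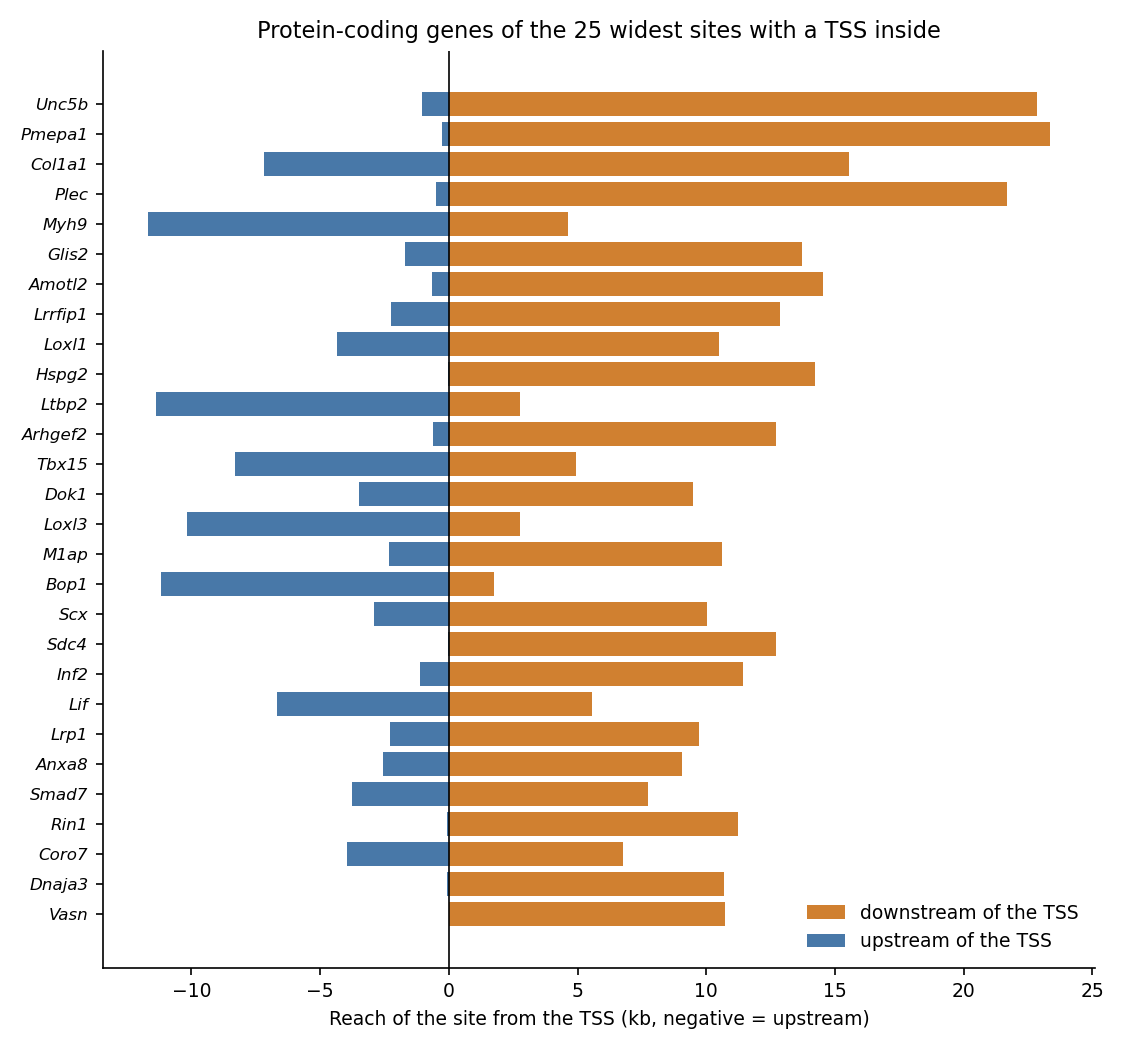
Reach in kb of the site upstream (blue, negative) and downstream (orange) of the outermost TSS inside the site, for the 28 protein-coding genes at the 25 widest sites with a TSS, in order of site width. The bars of Unc5b, Pmepa1 and Plec are almost entirely downstream, those of Myh9, Ltbp2, Loxl3 and Bop1 mainly upstream.

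To describe the direction over all sites, the bases upstream and downstream were counted for the 455 pairs of a broad site and a protein-coding gene. Counting stopped at the ends of the listed site, also where another site followed closely. More bases were downstream of the outermost TSS in 336 pairs (73.8%, interval 69.6 to 77.7%), with a median of 1576 bp upstream and 3814 bp downstream. On the 19 chromosomes with at least 5 pairs the share ranged from 62.5% to 87.5%. Narrower sites had the same tendency: the share was 82.1% in sites of up to 4 kb and 77.7% (interval 75.8 to 79.4%) in those of over 2 and up to 4 kb. A reach upstream of at least 3 times that downstream was found in 9.67% of pairs at broad sites and in 3.8% at sites of over 2 and up to 4 kb, and the converse in 45.7% and 38.5%. Over all sites of up to 4 kb these shares were 4.42% upstream and 54.8% downstream, so that the order of the downstream shares depends on the class compared.

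The direction depended on which TSS of a gene was taken, because the outermost TSS places more bases downstream by construction. With the innermost TSS the share was 49.2% (interval 44.7 to 53.8%), and in sites of over 2 and up to 4 kb it was 50.1%. In the 153 pairs in which the gene had 1 TSS in the site, where no choice exists, it was 61.4% (interval 53.5 to 68.8%), compared to 67.6% (interval 63.6 to 71.3%) in sites of over 2 and up to 4 kb. At the annotated 5′ end it was 74.6% of 284 pairs (interval 69.3 to 79.4%). In these counts the broad sites did not extend downstream more often than narrower sites.

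**Figure D3:**
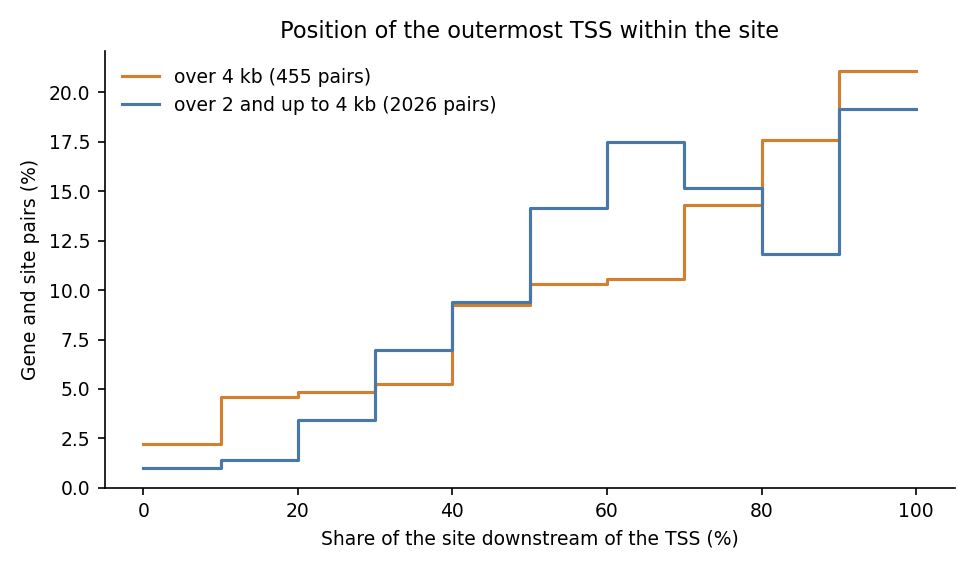
Percentage of gene and site pairs by the share of the site downstream of the outermost TSS, in steps of 10 percentage points, for broad sites (orange, 455 pairs) and sites of over 2 and up to 4 kb (blue, 2026 pairs). Both rise to the right, and the broad sites have more pairs at either end.

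Regarding parts of genes, 65.1% of the bases of the 416 sites with a protein-coding TSS were intronic. Coding exons took 7.1%, 5′ UTRs 5.93%, 3′ UTRs 2.06%, exons without coding or UTR annotation 3.71%, and 16.1% were outside protein-coding genes. In the sites of over 2 and up to 4 kb with such a TSS, introns took 53.2% and 5′ UTRs 13.2%. A coding exon was overlapped by 325 of the 416 sites (78.1%). The site covered a median of 14.1% of the gene, at least 50% of the gene in 83 pairs, and the whole gene in 29 pairs. The longest of these 29 genes was Nab2 (7651 bp). Examples were the early response genes Zfp36 (4530 bp), Gadd45b (6664 bp) and Socs1 (6173 bp), the epithelial-mesenchymal transition factor Snai1 (7087 bp), the tendon factor Scx (12935 bp), and Pfn1 (5630 bp) and Lgals1 (5608 bp), which encode profilin and galectin, where the values are widths of the sites.

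CGIs were then considered, since they mark most promoters. A CGI was overlapped by 313 broad sites (36.0%, interval 32.9 to 39.3%), beside 10.2% of all sites and 36.3% (interval 34.9 to 37.7%) of those of over 2 and up to 4 kb. Among sites with a protein-coding TSS the share was 65.4% (interval 60.7 to 69.8%), lower than the 80.3% (interval 78.4 to 82.0%) at 2 to 4 kb although the sites were wider. At Unc5b, Col1a1, Myh9, Sdc4, Lrp1, Smad7 and Axl the widest broad site with a TSS of the gene contained no CGI. Of these sites, the ones at Col1a1, Lrp1 and Axl contained the annotated 5′ end of the gene. Those at Unc5b, Myh9, Sdc4 and Smad7 did not, so they do not show whether the promoter at the 5′ end has a CGI. Where sites with a protein-coding TSS had a CGI, island bases were 17.6% of the broad sites and 37.2% at 2 to 4 kb. The median of island bases per site was 856 and 863 bp, respectively. Conversely, sites without any TSS contained a CGI in 7.67% (interval 5.46 to 10.7%) of 404 broad sites and in 3.96% (interval 3.25 to 4.81%) of 2424 narrower ones.

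Islands were also counted at the TSS itself. The outermost TSS in the site was inside a CGI for 178 of the 419 genes (42.5%, interval 37.8 to 47.3%). For genes that started only in sites of up to 4 kb the share was 71.2% (interval 70.3 to 72.0%). Over all protein-coding genes, with or without a site, only the annotated 5′ end was taken, and 42.8% (interval 42.2 to 43.5%) were inside a CGI. The 42.5% and 42.8% are thus not at like positions. Taking only genes whose annotated 5′ end was the outermost TSS in the site, the share was 51.6% of 275 genes with a broad site (interval 45.7 to 57.5%). It was 73.1% (interval 72.0 to 74.1%) for genes with narrower sites only. The median GC content of broad sites was 52.6% (all sites 48.8%) and their median repeat content 13.8% (all sites 11.0%). Sites of over 2 and up to 4 kb were close to the broad sites, with medians of 51.9% and 12.8%.

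**Figure D4:**
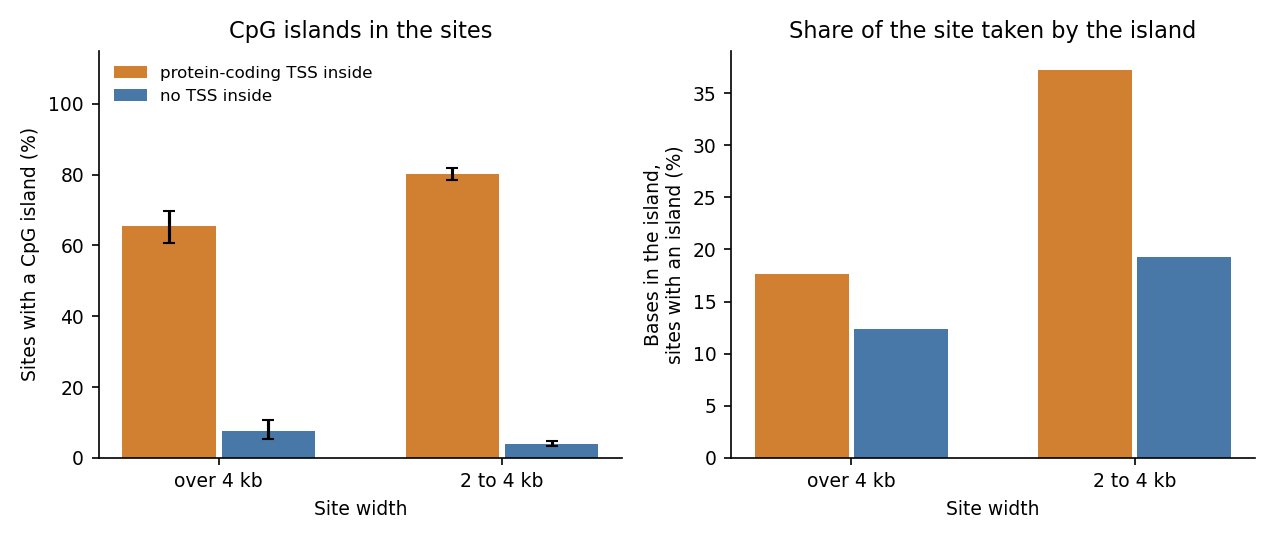
Left, percentage of sites that overlapped a CGI, with 95% Wilson intervals, and right, percentage of bases in the island among sites with one, for sites over 4 kb and of 2 to 4 kb with a protein-coding TSS (orange) or no TSS (blue) inside. With a TSS, 65.4% of broad and 80.3% of narrower sites had an island, which took 17.6% and 37.2% of their bases.

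Letters recognised by transcription factors were counted in the 250 bp before the TSS of the 419 genes, on both strands. This was the outermost TSS in the site, which was the annotated 5′ end for 275 of them and internal for the others. Genes with narrower sites were treated alike, but for all protein-coding promoters the annotated 5′ end was taken. Shares over all promoters are therefore not at like positions. GGAATG, recognised by TEAD factors, was found in 68 promoters (16.2%, interval 13.0 to 20.1%), compared to 11.6% of all protein-coding promoters and 10.4% (interval 9.83 to 11.0%) of genes with narrower sites only. TGANTCA, recognised by AP-1, was found in 28 (6.68%, interval 4.66 to 9.49%), beside 6.01% of all promoters and 4.57% (interval 4.18 to 4.98%) of genes with narrower sites only. TATAAA was found in 37 (8.83%, interval 6.47 to 11.9%), which lay between the 11.5% of all promoters and the 5.95% (interval 5.51 to 6.41%) of genes with narrower sites only. CCAAT was present in 109 (26.0%, interval 22.0 to 30.4%), below the 35.8% over all promoters and the 35.7% of genes with narrower sites only. The CArG box, bound by serum response factor, was found in 6 (1.43%, interval 0.658 to 3.09%; all promoters 1.34%), those of Elmsan1, Cnn2, Furin, Rpl10a, Pdgfa and Atxn1. No test was made, and a match is not evidence of binding.

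Broad sites without a TSS numbered 404. Of these 225 were fully within a protein-coding gene and 153 outside of any, and 316 touched no exon of such a gene. The distance from the edge of the site to the nearest protein-coding TSS had a median of 11802 bp (quartiles 3870 and 28111 bp). It was up to 1 kb for 43 sites and over 50 kb for 56 sites. The widest was outside protein-coding genes on chromosome 6 (31064324 to 31083601, 19278 bp), 105246 bp from the nearest TSS, that of Klf14. The next were within Myh9 (13714 bp), Gsn (12881 bp), encoding the actin-severing protein gelsolin, Arhgef18 (12267 bp) and Smad7 (11492 bp).

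Broad sites were rarely alone. Another site was less than 1 kb away from 779 of them (89.6%, interval 87.4 to 91.5%), and less than 200 bp away from 521 (60.0%), compared to 72.2% and 35.4% of all sites. In sites of over 2 and up to 4 kb these shares were 77.6% and 49.0%. The median gap to the nearest site was 157 bp (all sites 320 bp, sites of over 2 and up to 4 kb 206 bp). A median of 7 other sites was present within 10 kb (all sites 4, sites of over 2 and up to 4 kb 5). Many broad sites thus ended a short distance from the next site. Within 20 kb of each other, 336 broad sites (38.7%) formed 129 runs, of which 44 held 3 or more.

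The runs of 7 broad sites were at Myh9 (60523 bp of site in 62359 bp), at Col5a1 and the region before it (45567 bp in 102859 bp), and at Zmiz1 (38411 bp in 74486 bp), a coregulator of SMAD and nuclear receptor signalling. At Myh9 the gaps between adjacent sites of the run included ones of 60 and 90 bp. Nfix had a run of 6, and the alpha-actinin genes Actn4 and Actn1 had runs of 5 each. A run of 5 was also at the Hoxd cluster, with sites over Evx2 (4977 bp), Hoxd13 (4177 bp), Hoxd12 (5891 bp), Hoxd11 (6523 bp) and Hoxd9 (4104 bp). Hox genes encode factors that specify position along the body and limb axes. At the Hoxa cluster 4 sites covered TSSs of Hoxa9 (4303 bp), Hoxa10 (6713 bp), Hoxa11 (5275 bp) and the antisense gene Hoxa11os (6857 bp). Of these genes, only Hoxa11 had its annotated 5′ end inside its site. Of the genes with names Hoxb (10) and Hoxc (9), 0 started inside a site of any width.

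Broad sites were distributed unevenly over chromosomes. The mean over the 19 autosomes was 0.369 ± 0.15 (SD) per Mb of sequenced bases. The highest values were on chromosomes 11 (84 sites, 0.707 per Mb) and 15 (64 sites, 0.636 per Mb), the lowest among autosomes on chromosome 13 (16 sites, 0.137 per Mb). The X chromosome had 3 sites, 0.0183 per Mb, at a share of 0.146% of its 2054 sites, while the autosomes ranged from 0.254% to 1.21%.

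The kinds of genes were described with lists of named genes. As above, a gene was said to start inside a site when any of its TSSs was inside, not only its annotated 5′ end. Members of the TGF-beta and SMAD pathway started inside a broad site in 10 of 21 cases (47.6%, beside 1.93% of all protein-coding genes and 3.83% of those with any site). These were the ligand gene Tgfb3 (4783 bp), Ltbp3 (7895 bp), which binds the latent ligand, its relative Ltbp2 (14109 bp), the transducer Smad3 (4652 bp), the inhibitory Smad6 (5530 bp) and Smad7 (11509 bp), the repressors Ski (8317 bp) and Tgif1 (6904 bp), Pmepa1 (23608 bp) and the coactivator Tgfb1i1 (5609 bp). The ligand genes Tgfb1 (3006 bp) and Tgfb2 (3996 bp) started in narrower sites. Growth factor receptors and ligands were similar, with 10 of 22 (45.5%). Among receptors were Pdgfrb (4884 bp), Epha2 (7708 bp), Ephb2 (4196 bp), Fgfr2 (4171 bp) and Igf1r (5128 bp), and among ligands Lif (12243 bp), Csf1 (7177 bp), Vegfa (5288 bp), Hbegf (4226 bp) and Pdgfa (4129 bp). The values here and below are widths of the widest broad site with a TSS of the gene. At several listed genes this site contained internal TSSs only. Among them were Pmepa1, Smad3, Smad7, Lif, Vegfa, Pdgfa, Plec, Myh9, Actn4, Tln1, Tns1, Nfix and Tcf4.

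Of 30 genes of the actin cytoskeleton and adhesion, 13 (43.3%) started in a broad site. They included Plec (22157 bp), Myh9 (16311 bp), the crosslinkers Actn4 (8366 bp), Actn1 (6763 bp) and Flnc (7723 bp), the focal adhesion genes Zyx (4431 bp), Tln1 (5557 bp) and Tns1 (6024 bp), the thin filament genes Tpm2 (5838 bp), Cnn2 (5958 bp) and Tagln2 (4781 bp), and Ahnak (6587 bp) and the lamin gene Lmna (6827 bp). The widest sites at Vim (3921 bp), Actb (3032 bp) and Acta2 (1389 bp) were narrower. The fibronectin receptor gene Itga5 (7179 bp) and Itgb5 (5877 bp) were 2 of 7 integrins.

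Matrix collagens were covered in 6 of 14 cases (42.9%): Col1a1 (22711 bp), Col5a1 (8414 bp), Col16a1 (4732 bp), Col6a3 (4139 bp), and Col4a1 and Col4a2, which shared a site of 4235 bp over their common promoter. Col1a2 (3206 bp) and Col3a1 (454 bp), the other abundant fibrillar collagen genes of fibroblasts, started in narrower sites. Among matrix glycoproteins and crosslinkers, 5 of 24 were covered (20.8%). These were Loxl1 (14838 bp) and Loxl3 (12957 bp), which crosslink collagen and elastin, Hspg2 (14226 bp), Sparc (6377 bp) and the protease inhibitor gene Timp2 (6006 bp). The fibronectin gene Fn1 started in a site of 788 bp.

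Mesenchymal transcription factors had 9 of 24 (37.5%), among them Tbx15 (13238 bp), Prrx1 (7984 bp), Nfix (7711 bp), Snai1 (7087 bp), Hmga2 (5178 bp), Tbx3 (4595 bp), Tcf4 (4179 bp) and Foxp1 (4086 bp). YAP and TEAD targets and factors had 3 of 15, namely Amotl2 (15211 bp), the receptor tyrosine kinase gene Axl (10722 bp) and Ajuba (8969 bp), while the targets Ccn1 (3777 bp) and Ccn2 (2916 bp) were narrower. AP-1 and immediate early genes had 3 of 24 (12.5%), Mafk (5565 bp), Myc (4527 bp) and Fosl2 (4088 bp). The site at Fos was 3035 bp wide, and Jun had no TSS in a site. Histone acetylation and H3K4 methylation machinery had 4 of 31 (12.9%), among them the H3K27 demethylase gene Kdm6b (10149 bp), Hdac7 (6048 bp) and Kmt2d (4125 bp), a catalytic partner of ASH2L. Ash2l itself started in a site of 1756 bp.

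The housekeeping lists had at most 1 gene each with a broad site, which can be read beside 1.93% of all protein-coding genes and 3.83% of those with any site. Cytosolic ribosomal proteins had 1 of 26 (3.85%), Rps14 (7051 bp), respiratory chain genes 1 of 24 (4.17%), and the proteasome 0 of 21. Of these, 26, 19 and 20 started inside a site. The median width of the widest site per gene was 1837, 909 and 884 bp, compared to 4324 bp for the TGF-beta list, 3930 bp for the cytoskeleton list and 1229 bp over all protein-coding genes with a site. The ribosomal list is not complete: Rpl10a, which is not on it, started in a broad site of 4595 bp. The site of Rps14 also contained the 5′ end of Ndst1. Well-known long non-coding RNAs had 2 of 15 (13.3%, beside 1.09% of all long non-coding genes and 5.35% of those with any site), Neat1 (13852 bp), the scaffold of paraspeckles, and Lncpint (4617 bp). A total of 3 listed names of this group were not in the annotation.

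The cell type was checked with markers. Fibroblast markers started in a site in 13 of 16 cases and in a broad site in 4, Col1a1, Pdgfrb, S100a4 and Prrx1. The markers Fap, Dcn and Lum had no TSS in a site of any width. Markers of blood cells (12), neurons (10), epithelium (10), endothelium (8) and pluripotent cells (8) had 0 broad sites, and 0, 1, 0, 3 and 1 of them, respectively, started inside a site of any width. The members of all lists were chosen with results of these data known, so that the counts are a description of the sites.

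**Figure D5:**
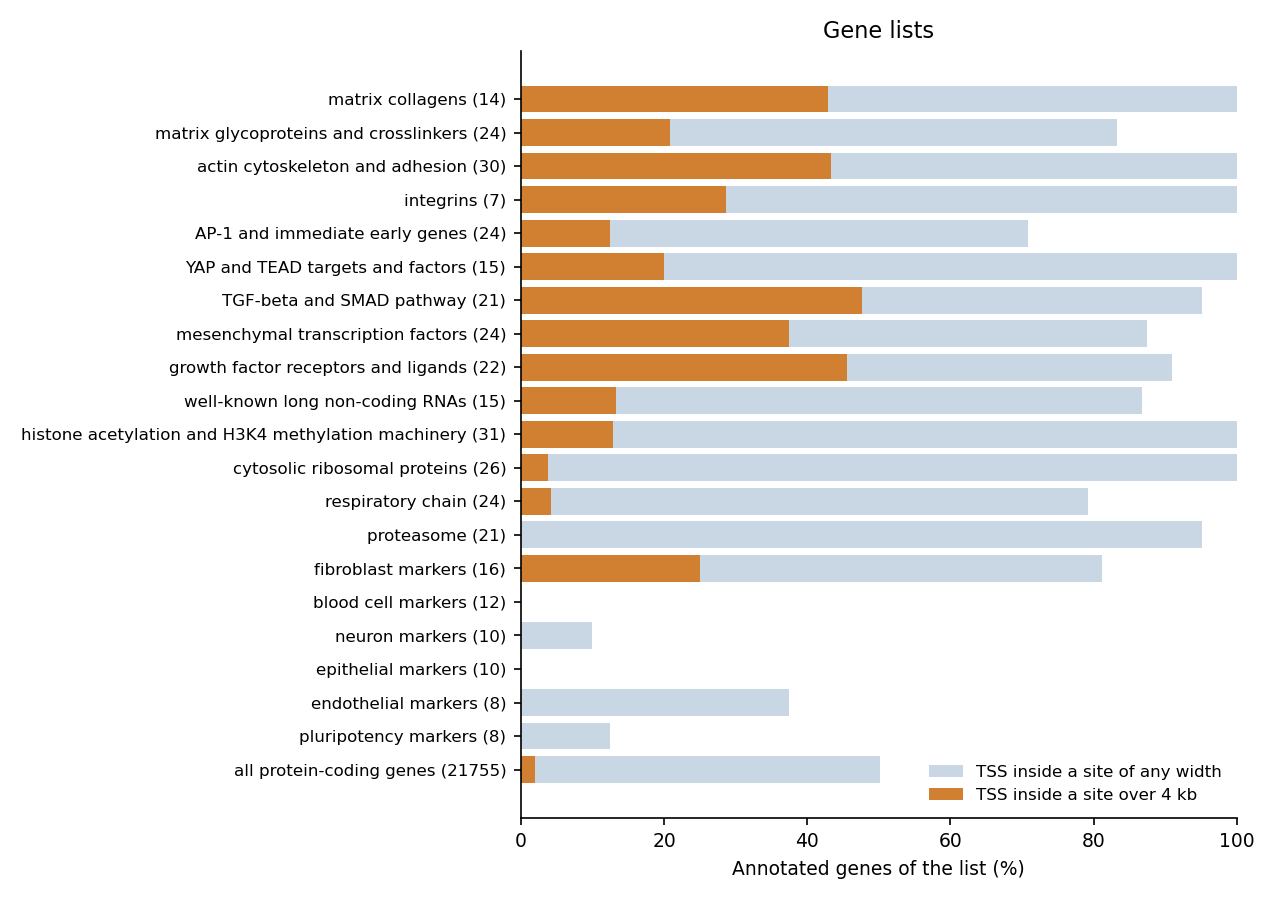
Percentage of annotated genes (number in brackets) of each list with a TSS inside a site of any width (light blue) or a broad site (orange). The TGF-beta and SMAD pathway reaches 47.6% in broad sites, the proteasome 0%, and all protein-coding genes 1.93%.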

How the data were processed

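H3K27ac ChIP-seq was made in 14 libraries of 8 groups. Per the paper's methods and the labels, the authors trimmed reads with Trim Galore, aligned them to mm10 with BWA, merged replicates and called narrow peaks with MACS. The threshold and the way in which peaks of the samples were joined are not given in the sources used here. The list deposited by the authors gives chromosome, start and end of each site in base pairs and no other value, so depth and precision by sample are unknown.

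Sites over 4 kb were taken from this list. The members and gene lists were chosen with earlier results of these data known. TSSs were taken from GENCODE M21 and sequences from GRCm38.p6. CGIs were called on unmasked bases with a minimum of 200 bp, 50% GC and 0.6 of the CpG number that base composition predicts. For each gene the outermost TSS inside a site divided it into upstream and downstream bases. Bases of gene parts were assigned in the order coding exon, 5′ UTR, 3′ UTR, other exon, intron. Older symbols in the lists were updated through RefSeq synonyms. Named are the protein-coding genes of the 25 widest sites with a TSS, list members in broad sites (some are not reported here), the 10 longest reaches downstream and 5 upstream, the 5 widest sites without a TSS, the 3 with most genes and 3 on either side of the threshold. Other genes and the Hox clusters were named after their values were seen. Wilson intervals (95%) were computed with scipy 1.17.1 in Python 3.11.15, and the scripts were tested on simulated data. No test was run. Alternatives included other widths, TSS sets and merging of close sites.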

Additional observations from a re-analysis of the deposited data

How the results depend on the processing

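Without values by sample, nothing could be tested between groups. No paired analysis was possible because replicates have no separate values. The number of sites follows the threshold and the breaks between sites: there were 1938 above 3 kb, 467 above 5 kb and 104 above 8 kb, and merging sites less than 200 bp or 1 kb apart gave 1821 and 4866 sites above 4 kb. The widest after merging at 200 bp spanned Myh9 (53889 bp). The share with a TSS was 49.6% above 3 kb and 66.3% above 8 kb, 42.2% with protein-coding transcripts, 44.8% with basic transcripts and 37.2% with annotated 5′ ends. The genes numbered 851, 237 and 70 above 3, 5 and 8 kb. The downstream direction was lost with the innermost TSS, at 49.2% (interval 44.7 to 53.8%), which includes an even split. The share was 61.4% for genes with 1 TSS in the site, an alternative chosen after seeing the data. The other 8 alternatives for the downstream share gave 71.6 to 76.9%. Direction was not recounted on merged sites, so its dependence on the breaks between sites was not tested. A CGI was present in 46.2% of sites above 8 kb and, counting islands of at least 500 bp, in 26.9% of broad sites. A site less than 1 kb away was found for 86.5% above 3 kb and 92.3% above 8 kb. With 500 bp before the TSS the motif shares were 12.6% (TGANTCA), 27.4% (GGAATG), 45.3% (CCAAT), 13.8% (TATAAA) and 3.34% (CArG box), and with 100 bp 3.58%, 7.16%, 14.1% and 3.82% for the first 4, which follows from the length searched. Counts in gene lists at 3, 5 and 8 kb, also chosen after seeing the data, cannot rise with the threshold, since the sites are nested. Matrix collagens had 8, 2 and 2 genes, and AP-1 and immediate early genes 6, 1 and 0. Above 8 kb the TGF-beta list had 4 genes, the cytoskeleton list 3, the YAP and TEAD list 3, and the growth factor and mesenchymal factor lists 1 each.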
